A study of Drosophila melanogaster with 15 samples.

Results

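The effect of depleting Lint-O on gene expression was examined in OSCs, a line of cultured somatic cells from the Drosophila ovary that has no germ cells. Lint-O (CG2662) was identified as a partner of L(3)mbt, a chromatin protein with MBT repeats that keeps germline genes silent in somatic tissue. Cells were collected 48 h after siRNA treatment. The siRNA targeted lint-O in the Lint-O KD cells and EGFP, which is not a fly gene, in the control cells, and 3 poly-A selected RNA-seq libraries were made for each condition. These 6 libraries are among 9 RNA-seq libraries and 15 samples in all, and they were chosen by their labels alone. The other 3 RNA-seq libraries, from cells treated with siRNA against l(3)mbt (L(3)mbt KD), were kept in the statistical fit and serve below only for a direct comparison of the 2 knockdowns. The knockdown was transient, in 1 cell line, and the study calls its replicates biological, without the labels saying whether they were separate cultures, so p-values measure the spread between these libraries.

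Somatic and germ cells of the fly ovary express different sets of genes. Germ cells make Vasa, a helicase of the perinuclear nuage, amplify piRNAs there with the Argonautes Aubergine and AGO3, go through meiosis and load the oocyte with maternal mRNAs and their regulators, whereas somatic follicle cells use a simpler piRNA pathway around Piwi, Yb and Armitage. L(3)mbt was found as a tumour suppressor whose loss lets somatic cells express germline genes, and the LINT complex, in which it acts with Lint-1 and the corepressor CoRest, represses transcription.

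Between 19139572 and 24028251 reads were counted on genes in the Lint-O KD libraries, and between 20755216 and 32274601 in the control libraries. Of the 16727 genes listed, 8726 had enough counts to be tested, and 8300 of these were protein coding. Levels are given below as counts per 1000000 counts (CPM) after scaling the libraries. A gene with 3 counts corresponds to at most 0.158 CPM in a Lint-O KD library and at most 0.146 CPM in a control library, a floor that covers counting error only. Markers of OSCs (tj, fs(1)Yb, piwi, Fas3, zfh1, vret and armi) were all detected, and their summed level was between 4182 and 4349 CPM in Lint-O KD and between 4091 and 4241 CPM in control. Reads outside annotated genes made up 4.43% to 7.38% of the reads in Lint-O KD, against 2.76% to 8.45% in control, with the lowest share in control replicate 3.

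The targeted mRNA was reduced in every Lint-O KD library. lint-O had 3.80, 3.44 and 3.53 CPM in Lint-O KD, against 21.6, 21.1 and 21.2 CPM in control. The groups did not overlap, and the log2 fold change was -2.56 (0.10 SE), a level 83.1% lower than in control (edgeR quasi-likelihood test with Benjamini-Hochberg adjustment, adjusted p = 2.4e-15).

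Most genes called higher after depletion of Lint-O were low in OSCs, whereas most genes called lower were well expressed and fell by little. At an FDR of 0.01 in edgeR's test, 1466 genes were upregulated (16.8% of the genes tested) and 661 were downregulated (7.58%). The upregulated genes had a median log2 fold change of 1.15 (interquartile range 0.46 to 2.36), that is a 2.22-fold rise, and 790 of them changed by at least 1 on the log2 scale. The downregulated genes had a median of -0.30 (interquartile range -0.39 to -0.25), a level 18.7% lower than in control, and 28 of them changed by at least 1. The median over all tested genes was 0.01. In bulk libraries fewer cells of a kind and less RNA per cell cannot be told apart. In each of the 1466 upregulated genes every Lint-O KD library was above every control library, and in each of the 661 downregulated genes every one was below, whereas such separation was seen in 26.6% and 20.5% of all tested genes. The summed level of the upregulated genes was 67925 ± 1396 CPM in Lint-O KD and 46385 ± 1102 CPM in control (SD, n = 3 each), and that of the downregulated genes was 97718 ± 479 CPM in Lint-O KD and 119565 ± 1837 CPM in control. The count of downregulated genes was smaller without any of the Lint-O KD libraries: 493 without replicate 1, 394 without replicate 2 and 466 without replicate 3. Without control replicates 1, 2 and 3 it was 666, 575 and 680.

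**Figure D1:**
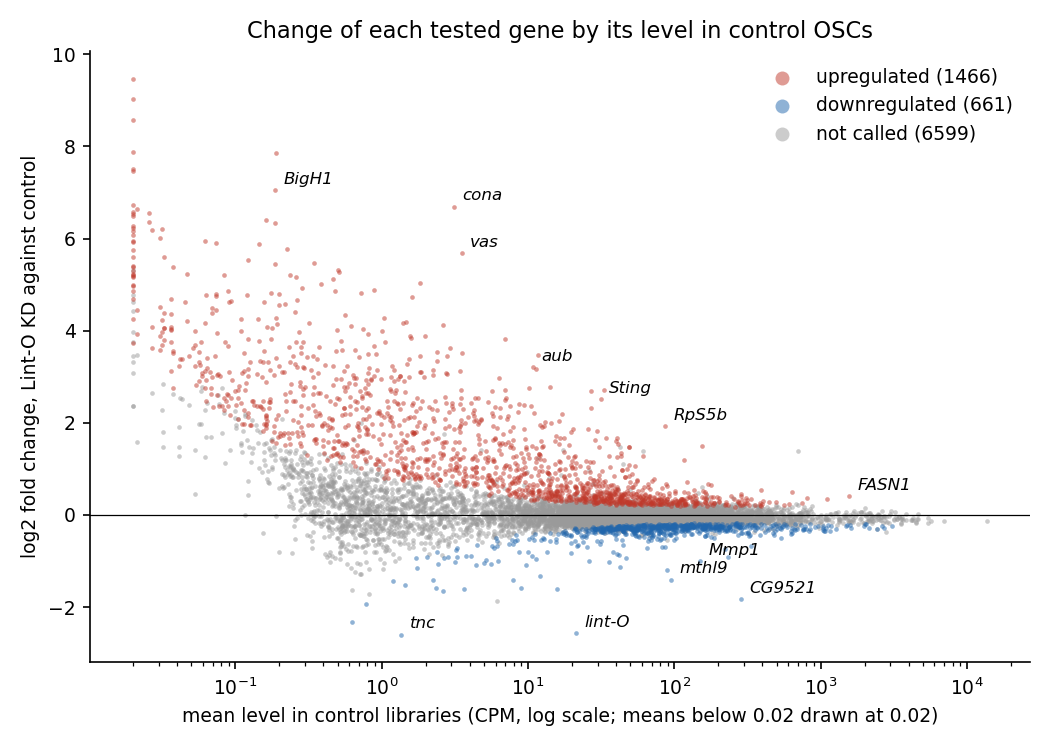
Change of the 8726 tested genes after Lint-O KD. Each point is a gene, placed by its mean level in the 3 control libraries (CPM, log scale) and its log2 fold change in Lint-O KD against control; red points are the 1466 upregulated genes, blue points the 661 downregulated genes and grey points the others. Upregulated genes are frequent at the low end of the control level and reach high fold changes there, where fitted values of genes with at most 3 counts in every control library depend on the prior count; downregulated genes lie mostly above 30 CPM and close to 0.

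The share of genes that rose was largest among genes that were nearly silent in control cells. Among the 172 tested genes with at most 0.1 CPM in control, 73.8% were upregulated, and the median log2 fold change was 3.64. The share was 51.1% between 0.1 and 0.3 CPM, 24.5% between 0.3 and 1 CPM, 31.9% between 1 and 3 CPM and 17.3% between 10 and 30 CPM. It was 6.02% between 100 and 300 CPM and 3.83% above 300 CPM. Genes at the low end pass the filter on low counts mainly through the libraries in which they are high, so these shares describe genes that could be tested, not all silent genes. Downregulated genes showed the opposite order, with 0.279% between 0.3 and 1 CPM and 14.3% above 300 CPM. Small falls can be called only where counts are high enough, so this order describes calls, not all genes that fell. The median control level was 5.66 CPM for upregulated, 80.1 CPM for downregulated and 42.5 CPM for the other tested genes. Of the upregulated genes, 110 had at most 3 counts in every control library, and for these only lower bounds of the fold change are given.

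Of the tested genes of germline piRNA factors, 52.4% rose, among them vas, aub and AGO3, against 16.8% of all tested genes. Of the 21 tested members of a list of factors of piRNA amplification, nuage and Rhino-dependent transcription, 11 rose and 1 fell, with a median log2 fold change of 0.32 against 0.01 over all genes. vas, the gene of the nuage helicase, had 186, 182 and 178 CPM in Lint-O KD, against 3.18, 3.75 and 3.67 CPM in control (log2 fold change 5.68 ± 0.09 SE, adjusted p = 3.7e-22). The groups were far apart, although 24.6% of the exon length of vas overlaps another gene and the counting may have split such reads. aub, which encodes the Argonaute that cuts transposon RNA with mostly antisense piRNAs, had 93.8, 109 and 100.2 CPM in Lint-O KD, against 10.4, 10.6 and 11.7 CPM in control (log2 fold change 3.21 ± 0.08 SE, adjusted p = 1.8e-18). Its partner AGO3 had 60.2, 47.5 and 39.7 CPM in Lint-O KD, against 12.7, 14.1 and 6.01 CPM in control (log2 fold change 2.21 ± 0.33 SE, adjusted p = 0.0026). The AGO3 libraries did not overlap but varied within both groups, and without Lint-O KD replicate 2 the log2 fold change of AGO3 was 2.23 with an adjusted p of 0.011.

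Further piRNA genes that rose encode Tudor-domain proteins, which bind methylated Argonautes, and subunits of complexes at piRNA clusters. qin, a Tudor-domain E3 ligase-like protein that keeps Aubergine from pairing with itself, had 73.6, 80.3 and 83.2 CPM in Lint-O KD, against 18.9, 14.9 and 17.9 CPM in control (log2 fold change 2.20 ± 0.08 SE, adjusted p = 6.7e-15). tej, whose product assembles nuage with Vasa, had 15.4, 14.2 and 12.7 CPM in Lint-O KD, against 1.32, 1.90 and 1.25 CPM in control, a log2 fold change of 3.28 (0.15 SE). In both genes the 2 groups were well separated. cuff, which protects cluster transcripts, had 17.6, 19.5 and 17.9 CPM in Lint-O KD, against 9.69, 8.96 and 10.4 CPM in control (log2 fold change 0.92 ± 0.10 SE, adjusted p = 7.6e-08), and rhi, the HP1 paralog Rhino that marks dual-strand clusters, had 14.4, 16.9 and 12.8 CPM in Lint-O KD, against 10.0, 10.2 and 11.02 CPM in control (log2 fold change 0.49 ± 0.11 SE, adjusted p = 0.0011). These 2 genes were already expressed in control OSCs and had smaller fold changes than qin or tej, and the call of rhi was lost without control replicate 1 or Lint-O KD replicate 2 (log2 fold change of rhi 0.44 and 0.38, adjusted p = 0.011 and 0.016). The member that fell was moon (CG12721), encoding a TFIIA paralog that starts transcription of such clusters, with 1.90, 1.61 and 1.16 CPM in Lint-O KD, against 2.68, 2.92 and 3.90 CPM in control (log2 fold change -1.02 ± 0.22 SE, adjusted p = 0.00095); without control replicate 3 the log2 fold change of CG12721 was -0.85, with an adjusted p of 0.011.

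Genes of the piRNA pathway that OSCs use themselves were called about as often as all tested genes. Of 20 tested somatic factors, 3 rose (15%) and 1 fell (5%), against 16.8% and 7.58% of all tested genes. Their median log2 fold change was 0.07. piwi had 1453, 1477 and 1422 CPM in Lint-O KD, against 1378, 1469 and 1495 CPM in control, and the libraries overlapped (log2 fold change 0.00, adjusted p = 0.97). The 3 that rose were Hen1, which methylates the 3′ ends of small RNAs (0.52 on the log2 scale), the export factor homolog nxf2 (0.30) and the Tudor-domain gene vret (0.21). Panx (CG9754), which links Piwi to heterochromatin formation, fell by 0.28 on the log2 scale, and this call was lost without Lint-O KD replicate 3 (-0.26, adjusted p = 0.013, for the log2 fold change of CG9754) or without control replicate 2 (-0.25, adjusted p = 0.013). The call of vret was lost under each of 5 of the 6 libraries left out.

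Genes of germ cell identity and of the oocyte rose in part. Among 19 tested genes of germ cell identity and maintenance, 7 rose (36.8%) and 1 fell (5.26%), with a median log2 fold change of 0.12. Of all tested genes, 16.8% rose and 7.58% fell. The number of germ cell genes that fell was 2 without control replicate 3 and 4 with the correction for exon length described below. nos, a translational repressor of the germ plasm, had 6.90, 7.02 and 7.47 CPM in Lint-O KD, against 0.0455, 0 and 0.319 CPM in control (log2 fold change 5.54 ± 0.38 SE, adjusted p = 5.1e-08). In control its reads came mainly from replicate 3. bgcn, a partner of Bam in the switch from stem cell to cystoblast, had 20.6, 22.6 and 21.6 CPM in Lint-O KD, against 7.91, 7.79 and 8.05 CPM in control (log2 fold change 1.44 ± 0.08 SE, adjusted p = 2.1e-12), and bam itself had 6.45, 6.84 and 6.32 CPM in Lint-O KD, against 3.18, 3.75 and 2.75 CPM in control (log2 fold change 1.04 ± 0.15 SE, adjusted p = 8.5e-06). Both genes separated the groups. Rbp9, an RNA-binding protein of differentiating cysts, rose by 2.05 on the log2 scale, the transcription factor gene ovo by 0.73, and Phf7, a chromatin reader gene of the male germ line, by 0.95. zpg, the germline gap junction gene, had 1.65, 1.25 and 0.790 CPM in Lint-O KD, against 0.0909, 0.0487 and 0.128 CPM in control (log2 fold change 3.66 ± 0.49 SE, adjusted p = 3.4e-06). osk, whose product nucleates germ plasm, had 1.61, 1.61 and 0.895 CPM in Lint-O KD, against 2.96, 1.27 and 1.37 CPM in control, overlapping and without a call (log2 fold change -0.40, adjusted p = 0.34), and 84.1% of its exon length overlaps another gene.

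Of 27 tested genes of oocyte polarity and maternal mRNA control, 11 rose (40.7%) and 0 fell in edgeR's test (median 0.29). DESeq2 called 0 lower as well, and 0 were lower at an unadjusted p under 0.05. Of all tested genes 16.8% rose, and of those between 0.1 and 0.3 CPM in control 51.1% rose. The part of control level in the rises of this list was not tested. Without Lint-O KD replicate 1 the number that rose was 7. swa, needed to anchor bicoid mRNA, had 4.63, 5.54 and 5.58 CPM in Lint-O KD, against 0.227, 0.0487 and 0.319 CPM in control (log2 fold change 4.57 ± 0.25 SE, adjusted p = 1.5e-12). exu, which also acts in bicoid mRNA transport, had 20.7, 22.4 and 23.1 CPM in Lint-O KD, against 4.09, 3.90 and 4.22 CPM in control (log2 fold change 2.43 ± 0.10 SE, adjusted p = 2e-14), and 12.1% of its exon length overlaps another gene. gnu, a subunit of the kinase that starts translation at egg activation, had 4.42, 4.25 and 3.05 CPM in Lint-O KD, against 0.227, 0.487 and 0.0958 CPM in control (log2 fold change 3.97 ± 0.32 SE, adjusted p = 1e-09). All 3 were clearly separated between the groups. Pxt, an ovarian peroxidase (cyclooxygenase-like) gene, had 1.28, 1.12 and 1.26 CPM in Lint-O KD, against 0 counts in every control library, at least 8.35-fold above the floor of 3 counts in the shallowest control library. BigH1, the histone H1 variant of germ cells and early embryos, had 23.8, 24.8 and 23.9 CPM in Lint-O KD, against 0.0909, 0.341 and 0.128 CPM in control (log2 fold change 7.06 ± 0.20 SE, adjusted p = 2.7e-17).

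Some meiotic genes rose, and most were not called. Of 25 tested genes of meiotic recombination and the synaptonemal complex, 10 rose (40%, against 16.8% of all tested genes) and 0 fell in edgeR's test (median 0.12). DESeq2 likewise called 0 lower, and 1 was lower at an unadjusted p under 0.05. The synaptonemal complex is the zipper that holds paired chromosomes together, and 4 of its components were among the genes that rose. cona, a central element gene, had 337, 327 and 314 CPM in Lint-O KD, against 3.27, 2.68 and 3.39 CPM in control (log2 fold change 6.69 ± 0.08 SE, adjusted p = 6.3e-24). c(2)M, encoding a lateral element protein, had 25.2, 25.9 and 23.2 CPM in Lint-O KD, against 4.68, 5.11 and 3.26 CPM in control (log2 fold change 2.54 ± 0.12 SE, adjusted p = 1.3e-13). c(3)G, encoding the transverse filament, rose by 1.14 on the log2 scale, and corolla (CG8316), encoding another central region protein, by 0.70. The groups did not overlap in any of the 4. Among genes of recombination, hdm had 10.7, 8.98 and 9.16 CPM in Lint-O KD, against 1.14, 0.828 and 1.501 CPM in control (log2 fold change 3.003 ± 0.16 SE, adjusted p = 1.2e-12), and the crossover genes vilya (CG2709), narya (CG12200) and nenya (CG31053) rose by 0.90, 0.84 and 1.10 on the log2 scale. sunn (CG32088), a gene of sister chromatid cohesion in meiosis, had 29.2, 32.1 and 29.0 CPM in Lint-O KD, against 9.82, 10.1 and 8.91 CPM in control (log2 fold change 1.65 ± 0.08 SE, adjusted p = 2.9e-13).

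**Figure D2:**
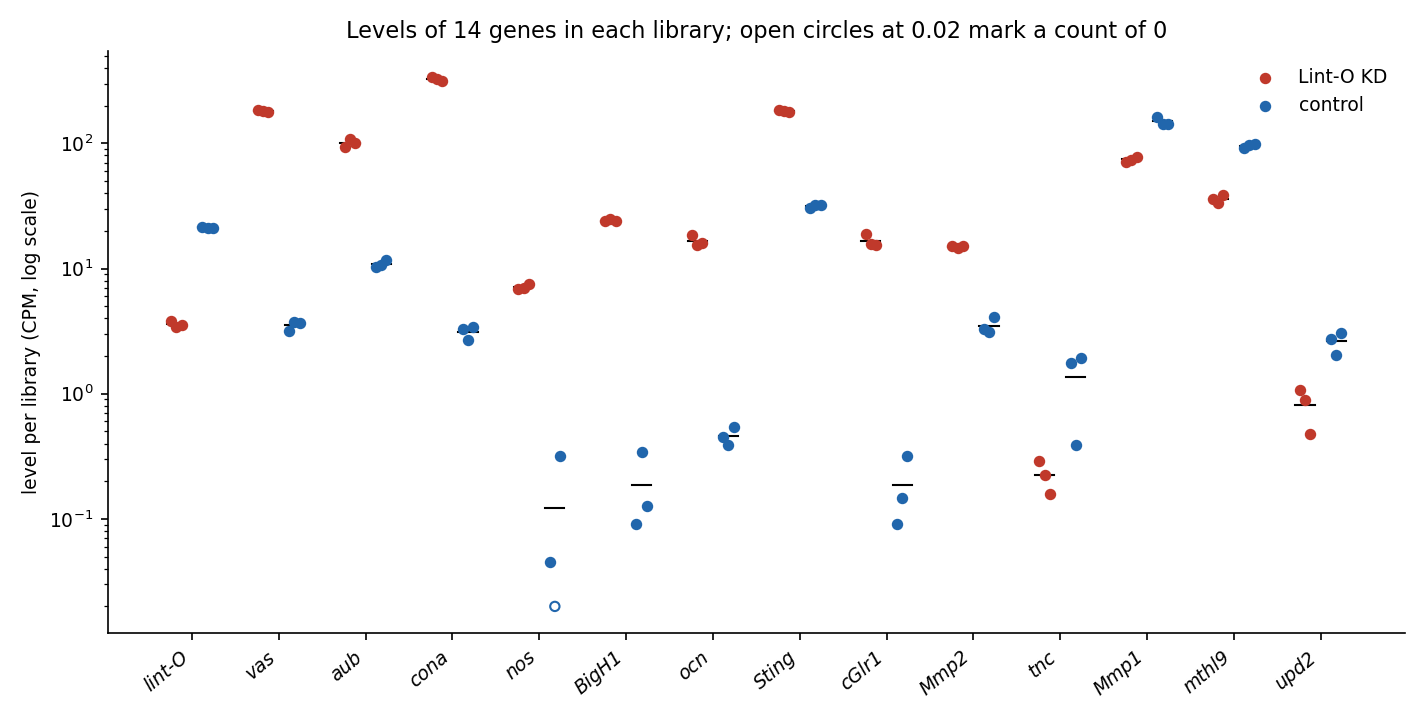
Level of 14 genes in each library (CPM, log scale), with the 3 Lint-O KD libraries (red) to the left of the 3 control libraries (blue) for each gene, a short line at each group mean and open circles at 0.02 for libraries with 0 counts. lint-O, tnc, Mmp1, mthl9 and upd2 are lower in Lint-O KD and the other 9 are higher, and no gene shown has overlapping groups.

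Part of the testis programme rose as well. Of 27 listed genes of spermatocyte and spermatid differentiation, 25 were in the table and 12 were tested, and 9 of these rose and 0 fell in edgeR's test (median log2 fold change 1.03), with 0 lower by DESeq2 and 0 at an unadjusted p under 0.05; 7 of the listed genes had 0 counts in all 6 libraries. ocn, a gene of the janus cluster that is expressed in testis, had 18.6, 15.4 and 15.9 CPM in Lint-O KD, against 0.455, 0.390 and 0.543 CPM in control (log2 fold change 5.12 ± 0.17 SE, adjusted p = 2.3e-16). tomb, a subunit of the testis-specific meiotic arrest complex, had 4.79, 5.36 and 5.11 CPM in Lint-O KD, against 0.728, 0.779 and 0.224 CPM in control (log2 fold change 3.23 ± 0.26 SE, adjusted p = 1e-09). The groups of both genes were far apart. topi, of the same complex, had 14.8, 16.4 and 16.5 CPM in Lint-O KD, against 9.73, 9.16 and 11.4 CPM in control (log2 fold change 0.64 ± 0.10 SE, adjusted p = 2e-05). Of the genes of testis-specific TAFs, partners of the basal transcription machinery, can, sa and nht had 0 counts, and mia rose by 0.82 on the log2 scale. Genes of mature sperm on the list (dj, Mst84Da and Mst84Dd) also had 0 counts. The 75% of tested testis genes that rose stood beside 16.8% of all tested genes. Among all tested genes with at most 0.1 CPM in control the share was 73.8%, and between 0.1 and 0.3 CPM it was 51.1%. Genes low in control pass the filter on low counts mainly through the libraries in which they are high. The 75% thus describes the tested genes, not the whole testis list.

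Most members of large families of housekeeping genes were not called, beside 24.4% of all tested genes that were called in either direction. Among 35 tested proteasome genes, 1 rose and 0 fell in edgeR's test, with a median of -0.03; DESeq2 and the correction for exon length described below each called 1 lower, and 2 were lower at an unadjusted p under 0.05. The gene that rose was Prosbeta2R2, a paralog of the catalytic beta2 subunit gene that is used in testis, with 30.5, 29.5 and 31.4 CPM in Lint-O KD, against 7.55, 7.35 and 6.80 CPM in control (log2 fold change 2.08 ± 0.08 SE, adjusted p = 6.7e-15). The groups were well separated in this gene, whereas 11 other listed paralogs or subunits had 0 counts.

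Among 88 tested genes with symbols of cytoplasmic ribosomal proteins, 3 rose and 5 fell (13 by DESeq2), with a median of -0.06. The 5 were RpL35, RpS29, RpL23A, RpLP0-like and RpL24-like, the last 2 included by symbol only. The 3 that rose were all second copies of a ribosomal protein gene. RpS5b, the copy used in the germ line, had 331, 313 and 346 CPM in Lint-O KD, against 85.1, 82.8 and 90.7 CPM in control (log2 fold change 1.94 ± 0.06 SE, adjusted p = 1.7e-16), whereas the ubiquitous RpS5a had 3169.7, 3089.9 and 3318 CPM in Lint-O KD, against 3295, 3068 and 3494 CPM in control (log2 fold change -0.04, adjusted p = 0.65). RpS19b, also a germline copy, had 91.5, 90.2 and 86.3 CPM in Lint-O KD, against 50.3, 42.4 and 55.2 CPM in control (log2 fold change 0.85 ± 0.08 SE, adjusted p = 2.2e-07), whereas RpS19a was not called (log2 fold change -0.02, adjusted p = 0.86). Levels in RpS5b and RpS19b separated the groups, and in RpS5a and RpS19a they overlapped. The third was RpS15Ab (log2 fold change 0.37). Reads of such copies may be shared between them where their sequences match. The count of 5 that fell was 3 without Lint-O KD replicate 2 and 11 without control replicate 2.

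Tubulin genes changed in both directions. Of the tested genes of the vacuolar proton pump 26.1% rose, and of those of the respiratory chain 4.62%, against 16.8% of all tested genes. Of 10 tested tubulin genes, 5 rose and 2 fell, or 1 without Lint-O KD replicate 1, 2 or 3. gammaTub37C, the maternal gamma-tubulin gene, had 7.89, 9.07 and 10.8 CPM in Lint-O KD, against 0.273, 0.195 and 0.383 CPM in control (log2 fold change 4.93 ± 0.21 SE, adjusted p = 2.3e-14). alphaTub67C, the maternal alpha-tubulin gene, had 4.59, 3.98 and 4.32 CPM in Lint-O KD, against 0.546, 0.731 and 0.511 CPM in control (log2 fold change 2.87 ± 0.20 SE, adjusted p = 1.1e-10). Both were separated by more than the spread of either group. betaTub85D, the testis beta-tubulin gene, had 0.413, 0.268 and 0.474 CPM in Lint-O KD, against 0 counts in control, at least 2.64-fold above the floor. Of 23 tested genes with vacuolar ATPase symbols, 6 rose and 0 fell in edgeR's test (DESeq2 also 0 lower, 1 lower at an unadjusted p under 0.05), and the number that rose was 3 without Lint-O KD replicate 2, control replicate 1 or control replicate 2. VhaM9.7-a had 1.82, 1.79 and 2.11 CPM in Lint-O KD, against 0, 0.0487 and 0.0639 CPM in control, at least 13.0-fold higher, and Vha16-5 had 1.41, 1.34 and 2.11 CPM in Lint-O KD, against 0.182, 0.146 and 0 CPM in control (log2 fold change 3.99 ± 0.501 SE, adjusted p = 1.4e-06). Vha68-1, a catalytic subunit gene, rose by 0.73 on the log2 scale. Of 65 tested respiratory chain genes, 3 rose and 4 fell; DESeq2 called 8 lower, and 15 were lower at an unadjusted p under 0.05. The 3 respiratory genes that rose are all paralogs of a subunit gene: ATPsynbetaL (ms(3)72Dt), with 4.79, 4.78 and 4.74 CPM in Lint-O KD, against 0.227, 0.438 and 0.447 CPM in control (log2 fold change 3.64 ± 0.26 SE, adjusted p = 1.7e-10), COX7AL (CG18193, log2 fold change 3.07) and COX4L (CG10396, 2.98).

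**Figure D3:**
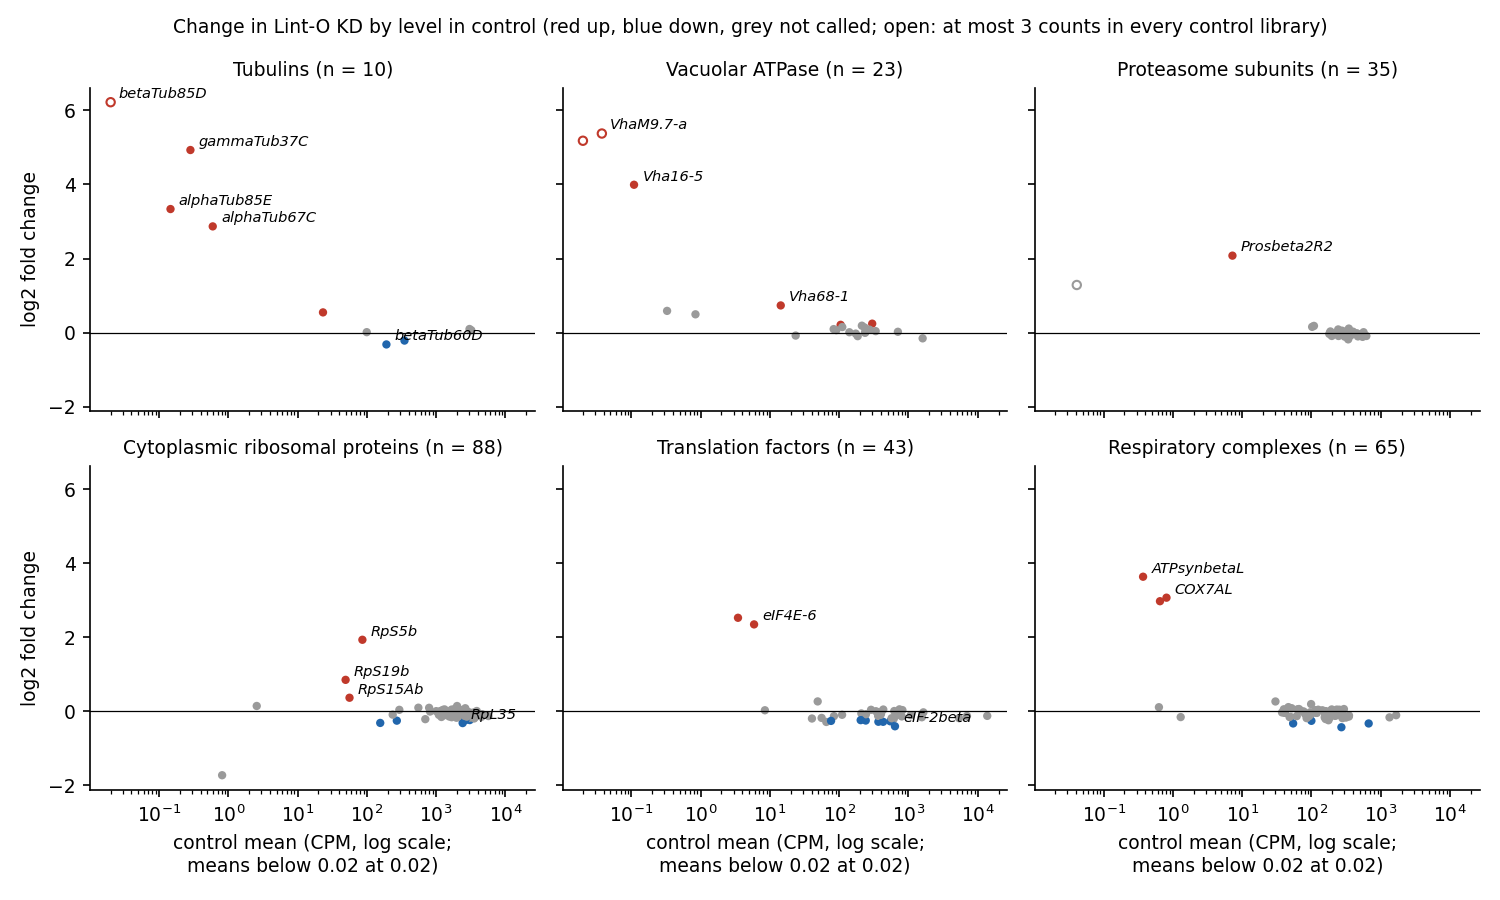
Tested members of 6 gene families, each point a gene, by mean level in control (CPM, log scale) and log2 fold change in Lint-O KD against control. The members that rose by more than 1 on the log2 scale lie toward the low end of each family, such as gammaTub37C (4.93) and Prosbeta2R2 (2.08), while the bulk of each family lies near 0; open points had at most 3 counts in every control library, so their fitted values are not bounds.

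Genes of mitochondrial ribosomes and translation factors were among those that fell, each by little. Of 72 tested mitochondrial ribosomal protein genes, 16 fell and 0 rose in edgeR's test, with a median of -0.12; DESeq2 also called 0 higher, and 1 was higher at an unadjusted p under 0.05. Without Lint-O KD replicate 2 the number that fell was 9, and without Lint-O KD replicate 3 it was 8. mRpL16 had 54.6, 53.3 and 57.5 CPM in Lint-O KD, against 68.1, 72.2 and 73.2 CPM in control (log2 fold change -0.37 ± 0.06 SE, adjusted p = 7.1e-05), and mRpL14 had 36.5, 34.5 and 34.2 CPM in Lint-O KD, against 46.9, 43.8 and 46.2 CPM in control (log2 fold change -0.38 ± 0.07 SE, adjusted p = 0.00028). Neither gene overlapped between the groups, though the distance was small relative to the level. Of 43 tested translation factor genes, 8 fell and 2 rose, with a median of -0.10, and 5 fell without Lint-O KD replicate 2. The shares that fell were 22.2% for mitochondrial ribosomal protein genes and 18.6% for translation factor genes, against 7.58% of all tested genes. By level in control, the share of all tested genes that fell was 10.2% between 30 and 100 CPM, 12.2% between 100 and 300 CPM and 14.3% above 300 CPM. The part of expression level in these falls was not tested. eIF-2beta, a subunit of the factor that brings initiator tRNA, had 490.1, 483 and 479.9 CPM in Lint-O KD, against 599, 670.4 and 649.6 CPM in control (log2 fold change -0.40 ± 0.06 SE, adjusted p = 1.7e-05), and eIF-2gamma, of the same factor, fell by 0.28 on the log2 scale (15.98% of its exon length overlaps another gene). The 2 that rose were again paralogs. eIF4E-6, a cap-binding protein paralog expressed in testis, had 32.2, 30.3 and 26.2 CPM in Lint-O KD, against 6.87, 6.43 and 4.44 CPM in control (log2 fold change 2.35 ± 0.13 SE, adjusted p = 6.6e-11), and eEF1alpha2 (Ef1alpha100E) had 19.96, 20.4 and 20.7 CPM in Lint-O KD, against 3.36, 2.97 and 4.06 CPM in control (log2 fold change 2.53 ± 0.12 SE, adjusted p = 2.9e-13). Of the cytoplasmic ribosomal protein genes that fell, RpL35 had 1967, 1959 and 1895 CPM in Lint-O KD, against 2362, 2319 and 2563 CPM in control (log2 fold change -0.32 ± 0.06 SE, adjusted p = 0.00011).

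Housekeeping motifs were found in different shares of the promoters of genes that rose and fell, a description without a test. The DNA replication-related element (DRE), TATCGATA, is bound by the factor DREF and marks promoters of many housekeeping genes. It was searched on both strands from 250 bases before to 50 bases after the start of each gene, in promoters from RefSeq (Release 6 of the genome, dm6). It was present in 8.04% of 1455 promoters of upregulated genes, 17.3% of 653 promoters of downregulated genes and 14.9% of 6533 promoters of other tested genes, against 13.9% of all tested genes. Among genes with at least 10 CPM in control, the shares were 12.9%, 18.5% and 18.2%. Among genes under 1 CPM the order was the other way, with the DRE in 4.37% of 435 promoters of upregulated genes and 2.12% of 709 promoters of other tested genes. Motif 1 (GGTCACAC on either strand), another housekeeping promoter element, was present in 5.70% of upregulated, 14.1% of downregulated and 13.0% of other promoters (11.8% of all tested; under 1 CPM, 2.07% of upregulated and 1.69% of other promoters), and the E-box CAGCTG in 15.2%, 26.03% and 21.3% (20.7% of all tested). The letters CGATA, which overlap the DRE, were found in 46.7%, 58.0% and 55.3% (54.03% of all tested), and under 1 CPM in 40.2% of upregulated and 35.7% of other promoters. The shares of promoters with the letters TTCGCGC of E2F sites (3.09%, 3.06% and 3.37%), TTTGAA (43.2%, 41.04% and 43.3%), TATAAA (42.6%, 46.6% and 44.3%) and GAGAGAG (6.87%, 4.29% and 5.74%) differed by less over all levels. A match is not a bound site. Windows of 30 bases around the DRE are shown for 4 genes that rose, of tubulins, a piRNA factor and a cap-binding protein paralog. Beside them stand genes that fell and bear symbols of ribosomal proteins or translation factors. The DRE is in capitals, and each window is read 5′ to 3′ on the strand of its gene.
gammaTub37C: tacttcttgtaTATCGATAttaatgacttc
alphaTub67C: tttcaaattagTATCGATAagccgccagaa
qin: tggagcaatctTATCGATActgtcatcgaa
eIF4E-6: atcacgcgataTATCGATAtgtttcgattg
RpL24-like: ttagccagtgtTATCGATAagcagtgactg
eIF-1A: atgatgatagaTATCGATAgctttagcggt
mRpL16: aatcggtggtcTATCGATAtatgtttttag
The first 4 belong to genes that rose and the other 3 to genes that fell, and the DRE begins between 30 and 202 bases before the annotated start. The windows lie at chr2L:19185738-19185767 (- strand) for gammaTub37C, chr3L:9681151-9681180 (+ strand) for alphaTub67C, chr3R:18590925-18590954 (+ strand) for qin, chr3R:29027214-29027243 (- strand) for eIF4E-6, chr3R:11431604-11431633 (- strand) for RpL24-like, chr3R:18274452-18274481 (+ strand) for eIF-1A and chrX:1890213-1890242 (+ strand) for mRpL16.

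Innate immune genes changed in both directions. Of 24 tested effectors and receptors, 10 rose (41.7%) and 3 fell (12.5%), with a median of 0.37, against 16.8% and 7.58% of all tested genes. Without control replicate 1, 6 of them rose, and 1 fell without Lint-O KD replicate 1 or without control replicate 3. In flies, cGAS-like receptors make cyclic dinucleotides that activate Sting and, through it, the NF-kappaB factor Relish. Sting (CG1667) had 186, 181 and 176 CPM in Lint-O KD, against 30.2, 32.0 and 32.3 CPM in control (log2 fold change 2.52 ± 0.06 SE, adjusted p = 1.8e-18). cGlr1 (CG12970), a cGAS-like receptor gene outside the list, had 18.9, 15.6 and 15.4 CPM in Lint-O KD, against 0.0909, 0.146 and 0.319 CPM in control (log2 fold change 6.33 ± 0.21 SE, adjusted p = 2.6e-16). Both genes separated the groups widely, and Rel itself rose by 0.27 on the log2 scale, or by 0.22 with an adjusted p of 0.011 without control replicate 1, for the log2 fold change of Rel. pst, which confers resistance to a picorna-like virus, had 444, 429 and 443 CPM in Lint-O KD, against 167, 139 and 160.2 CPM in control (log2 fold change 1.498 ± 0.06 SE, adjusted p = 1.6e-14). Of pattern receptors, PGRP-SA rose by 2.07, PGRP-SC2 by 2.31 and GNBP3 by 1.06 on the log2 scale. Of the Toll pathway, the ligand gene spz fell by 0.62, dl, the NF-kappaB factor Dorsal, by 0.27 and its inhibitor gene cact by 0.22 on the log2 scale. The call of spz was lost without Lint-O KD replicate 1 (-0.56, adjusted p = 0.016, for the log2 fold change of spz) or without control replicate 3 (-0.53, adjusted p = 0.017). That of cact was lost without any of the libraries other than control replicate 2, with a log2 fold change of cact between -0.22 and -0.21 and adjusted p between 0.010 and 0.020.

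Genes of the basement membrane and its remodelling rose more often than all tested genes. Of 29 tested members, 14 rose (48.3%) and 3 fell (10.3%), with a median of 0.36. Of all tested genes, 16.8% rose and 7.58% fell, so the share that fell was near that of all genes. Collagen IV, the main basement membrane collagen, is encoded by Col4a1 (Cg25C) and vkg. Col4a1 had 45.1, 46.1 and 57.7 CPM in Lint-O KD, against 18.6, 22.3 and 21.2 CPM in control (log2 fold change 1.26 ± 0.09 SE, adjusted p = 4.2e-09), and vkg had 13.7, 15.9 and 16.5 CPM in Lint-O KD, against 7.59, 7.55 and 6.96 CPM in control (log2 fold change 1.06 ± 0.10 SE, adjusted p = 9.3e-09). The groups did not overlap in either gene. The integrin ligand gene Tig rose by 2.12 and Ppn, encoding papilin, by 1.09 on the log2 scale. The 2 matrix metalloproteinase genes of the fly went opposite ways: Mmp2 had 15.05, 14.5 and 15.1 CPM in Lint-O KD, against 3.27, 3.12 and 4.09 CPM in control (log2 fold change 2.07 ± 0.10 SE, adjusted p = 4e-13), whereas Mmp1 had 71.4, 73.98 and 78.1 CPM in Lint-O KD, against 162, 143 and 143 CPM in control (log2 fold change -1.005 ± 0.06 SE, adjusted p = 2.1e-11). Timp, which encodes their inhibitor, fell by 0.31 on the log2 scale, and 15.7% of its exon length overlaps another gene. The integrin ligand gene tnc had 0.289, 0.224 and 0.158 CPM in Lint-O KD, against 1.77, 0.390 and 1.92 CPM in control (log2 fold change -2.60 ± 0.59 SE, adjusted p = 0.0029), with 1 control library near the Lint-O KD level. The log2 fold change of tnc lay between -2.83 and -2.26, with adjusted p between 0.011 and 0.019, when each library other than control replicate 2 was left out. Some of these genes are long, and with the correction for exon length described below 11 members rose and 5 fell, and LanA (log2 fold change 0.36) and trol (0.31) lost their calls.

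Calls in signalling pathways were counted beside the 16.8% of all tested genes that rose and the 7.58% that fell. Those of the EGFR pathway were mostly downward, with 26.9% of its tested genes lower and 3.85% higher. Of 26 tested EGFR and MAPK genes, 7 fell and 1 rose (median -0.09). The ligand gene spi had 241, 238 and 229 CPM in Lint-O KD, against 308, 309 and 308 CPM in control (log2 fold change -0.39 ± 0.05 SE, adjusted p = 3.3e-06), and vn, another ligand gene, had 13.7, 15.3 and 15.2 CPM in Lint-O KD, against 20.7, 18.8 and 19.9 CPM in control (log2 fold change -0.43 ± 0.09 SE, adjusted p = 0.00084). Lower levels without overlap were also measured for rho, whose protease activates Spi (log2 fold change -0.53), the chaperone gene S (-0.37), the adaptor gene drk (-0.38, with 19.6% of its exon length overlapping another gene), the feedback inhibitor gene sty (-0.49) and the Ets regulator gene edl (-0.51). The call of sty was lost without Lint-O KD replicate 2, control replicate 1 or control replicate 2, with a log2 fold change of sty between -0.51 and -0.45 and adjusted p between 0.012 and 0.019. The gene that rose was grk, the ligand made by the oocyte (log2 fold change 0.30); 12.3% of its exon length overlaps another gene, and its call was lost without Lint-O KD replicate 1 or 2 or control replicate 2 or 3 (log2 fold change of grk between 0.23 and 0.30, adjusted p between 0.022 and 0.045). Of 14 JAK/STAT genes, 3 fell and 0 rose in edgeR's test (0 higher by DESeq2, 1 higher at an unadjusted p under 0.05), and 5 fell without control replicate 3 or with the correction for exon length. The 3 were the ligand genes upd2, with 1.07, 0.894 and 0.474 CPM in Lint-O KD, against 2.73, 2.05 and 3.07 CPM in control (log2 fold change -1.66 ± 0.26 SE, adjusted p = 2.6e-05), and upd3 (-0.54), and the feedback inhibitor gene Socs36E (-0.43).

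Most genes of other pathways were not called, as was so for all tested genes, of which 24.4% were called in either direction. The 18.2% of BMP genes and 17.6% of Notch genes that rose were near the 16.8% of all tested genes. Hedgehog genes had 1 call in each direction among 16 tested (3 lower without control replicate 3), and follicle cell identity factors 1 in each direction among 22. With the correction for exon length described below, Hedgehog genes had 0 higher and 3 lower and follicle cell identity factors 0 higher and 2 lower, where br, the only rise, reversed (log2 fold change of br -0.049). DESeq2 called 2 Hedgehog genes lower and 0 follicle cell identity factors higher. Wnt genes had 2 in each direction among 22, with 1 lower without Lint-O KD replicate 1 or 3 or control replicate 1 or 2. Hippo genes had 1 higher and 2 lower among 24, with 2 higher without control replicate 1, and 1 lower without any 1 library other than control replicate 3. Notch genes had 3 higher and 1 lower among 17 (1 higher without control replicate 2), and BMP genes had 4 higher and 1 lower among 22 (2 lower without control replicate 2 or 3 or by DESeq2). With the same correction, Hippo genes had 4 lower, Notch genes 1 higher and 2 lower, and BMP genes 2 lower. The largest of these rises was that of Actbeta, an activin ligand gene on chromosome 4, with 2.98, 2.68 and 3.11 CPM in Lint-O KD, against 0.0909, 0.0487 and 0.128 CPM in control (log2 fold change 4.87 ± 0.29 SE, adjusted p = 8e-12), a difference far beyond the spread of either group. Of Wnt genes, Wnt2 had 30.5, 31.5 and 34.5 CPM in Lint-O KD, against 16.1, 15.1 and 17.9 CPM in control (log2 fold change 0.97 ± 0.08 SE, adjusted p = 2e-09), and Wnt6 had 6.08, 5.41 and 5.11 CPM in Lint-O KD, against 8.32, 7.74 and 8.37 CPM in control (log2 fold change -0.56 ± 0.12 SE, adjusted p = 0.0013). Among 57 cell cycle and replication genes, 7 rose and 2 fell. Without control replicate 2 or Lint-O KD replicate 3 it was 3 that rose, without control replicate 1 or Lint-O KD replicate 2 it was 4, and 1 fell without control replicate 1 or 3 or Lint-O KD replicate 2 or 3. PCNA2 (CG10262), a paralog of the replication clamp gene, rose by 1.23, and the helicase gene Mcm3 by 0.38 on the log2 scale. Among 30 apoptosis and damage genes, 3 rose and 3 fell (1 without control replicate 1 or Lint-O KD replicate 2 or 3). debcl, encoding a Bcl-2 family protein, had 43.2, 44.7 and 46.2 CPM in Lint-O KD, against 19.0, 19.3 and 18.2 CPM in control (log2 fold change 1.25 ± 0.07 SE, adjusted p = 3.1e-12).

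**Figure D4:**
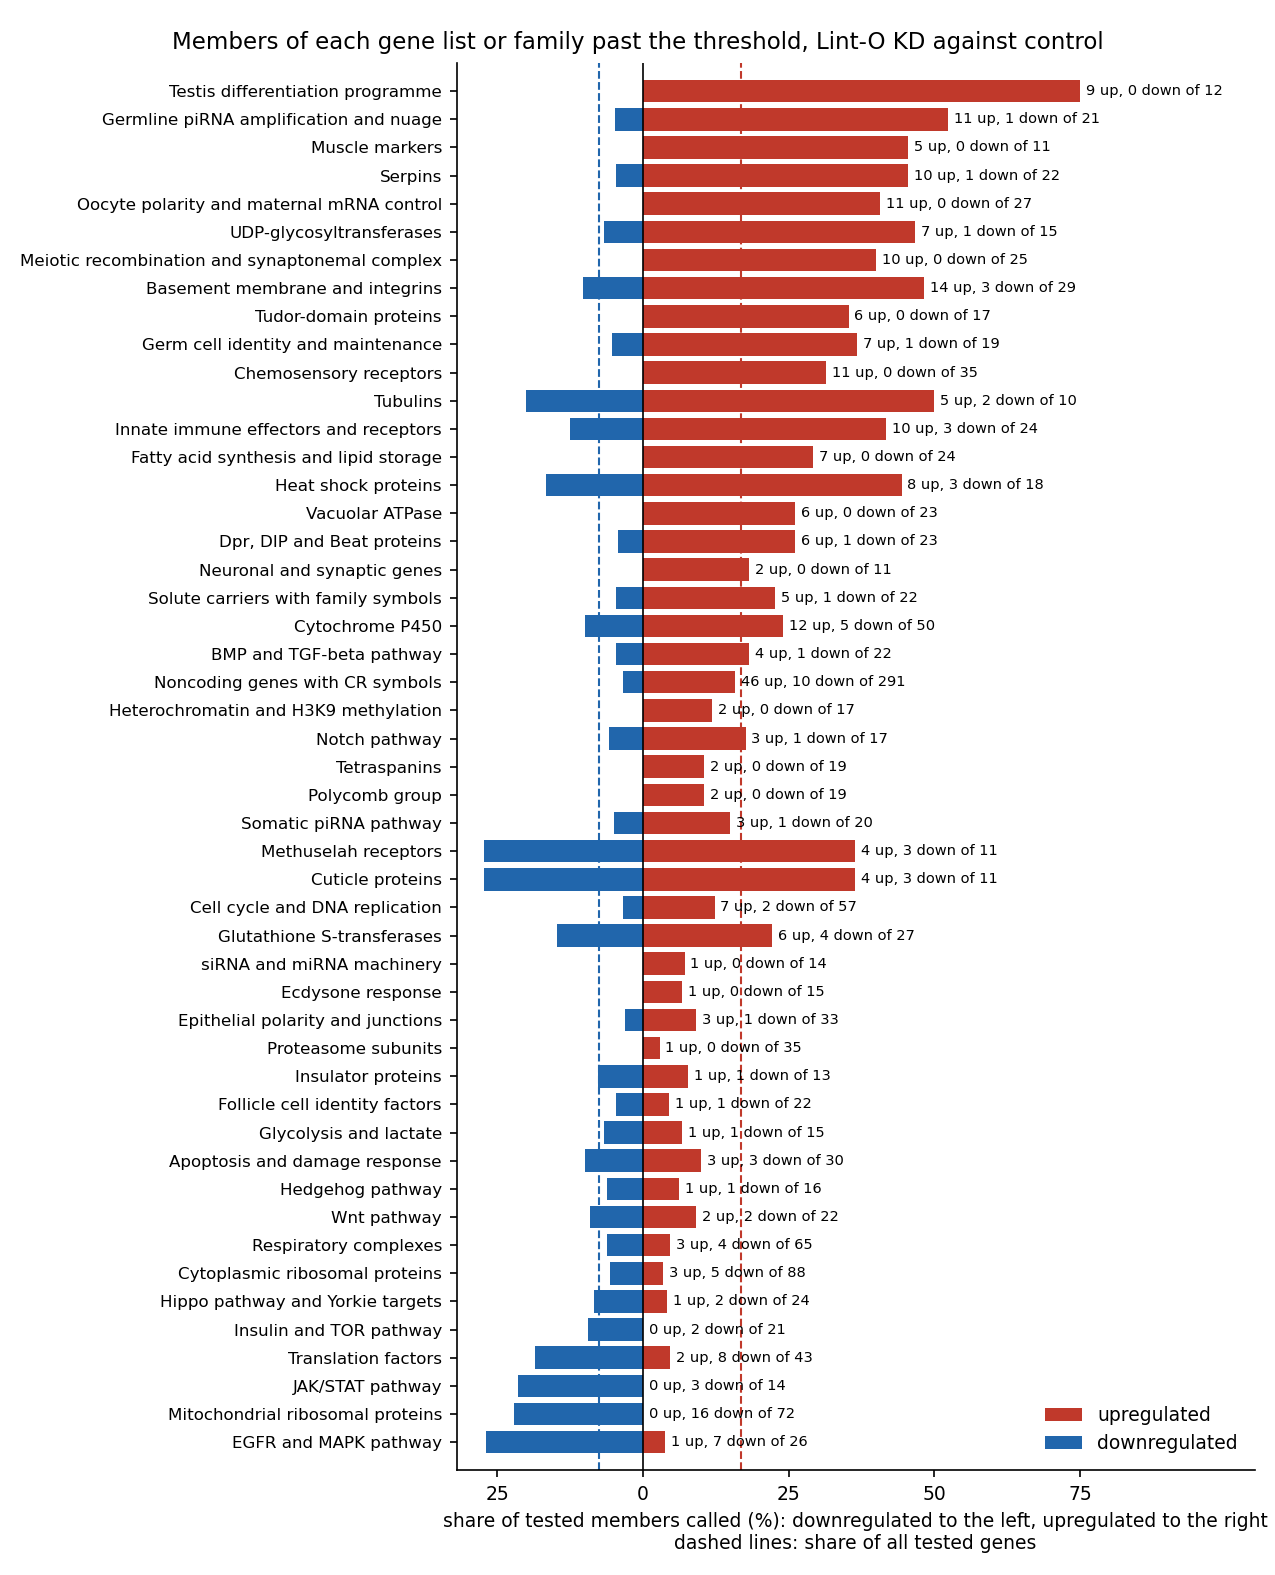
Share of tested members called in each gene list or family with at least 10 tested members, upregulated in Lint-O KD to the right (red) and downregulated to the left (blue), with dashed lines at the share of all tested genes (16.8% up and 7.58% down). Testis and germline piRNA genes have the largest net shares upward and EGFR, mitochondrial ribosomal and JAK/STAT genes the largest downward; members were listed with earlier results of these data known, so the bars are a description.

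Families of secreted, metabolic and sensory proteins were counted beside the 16.8% of all tested genes that rose. Of 22 tested serpins, inhibitors of extracellular proteases, 10 rose (45.5%) and 1 fell (median 0.29). Spn77Bb had 16.5, 14.4 and 13.5 CPM in Lint-O KD, against 3.23, 3.90 and 3.99 CPM in control (log2 fold change 1.99 ± 0.12 SE, adjusted p = 8.5e-12), and the neighbouring Spn77Ba had 4.59, 4.38 and 4.16 CPM in Lint-O KD, against 0.455, 0.292 and 0.831 CPM in control (log2 fold change 2.95 ± 0.24 SE, adjusted p = 1.6e-09). Both were separated between the groups, whereas Spn27A, the serpin of the Toll pathway's protease cascade, fell by 0.55 on the log2 scale. Of 35 tested chemosensory receptor and channel genes, 11 rose and 0 fell in edgeR's test (0 lower by DESeq2 and 0 at an unadjusted p under 0.05), with a median of 0.31, and 100 of the 208 listed had 0 counts. Their share of 31.4% lay within the range of 24.5% to 31.9% found among all tested genes between 0.3 and 3 CPM in control. Ir40a, a receptor subunit of humidity sensing, had 51.4, 57.7 and 50.8 CPM in Lint-O KD, against 17.2, 14.4 and 18.1 CPM in control (log2 fold change 1.68 ± 0.08 SE, adjusted p = 2.9e-13), and Ir31a had 4.67, 4.69 and 5.001 CPM in Lint-O KD, against 0.318, 0.146 and 0.0639 CPM in control (log2 fold change 4.83 ± 0.30 SE, adjusted p = 1.2e-11). Of 15 UDP-glycosyltransferase genes, 7 rose (46.7%) and 1 fell, or 2 without control replicate 2, by DESeq2 or with the correction for exon length (median 0.58). Of 50 cytochrome P450 genes, 12 rose and 5 fell (median 0.21), and the 24.0% that rose was near the share of all tested genes. Cyp301a1 rose by 1.77 and Cyp6d5 fell by 0.68 on the log2 scale. GstO3 rose by 1.29 and GstS1 by 0.76 among 27 glutathione S-transferase genes, of which 6 rose (22.2%, also near that share) and 4 fell, or 2 without Lint-O KD replicate 2.

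Methuselah-type receptors and cuticle proteins were split. Of 11 tested methuselah genes, which encode adhesion-type G protein coupled receptors, 4 rose (36.4%) and 3 fell (27.3%). Of all tested genes, 16.8% rose and 7.58% fell. mthl9 had 35.7, 33.3 and 38.8 CPM in Lint-O KD, against 91.3, 96.1 and 98.1 CPM in control (log2 fold change -1.41 ± 0.08 SE, adjusted p = 5.7e-12), and mth had 24.1, 21.9 and 22.4 CPM in Lint-O KD, against 40.2, 42.2 and 40.03 CPM in control (log2 fold change -0.84 ± 0.08 SE, adjusted p = 1.5e-08). mthl14 had 44.0, 40.2 and 38.1 CPM in Lint-O KD, against 7.87, 7.45 and 5.97 CPM in control (log2 fold change 2.54 ± 0.11 SE, adjusted p = 1.9e-12). In all 3 the groups were apart by more than their spread. mthl7 had 3.93, 3.13 and 4.05 CPM in Lint-O KD, against at most 3 counts in each control library, at least 25.3-fold higher. Of 122 listed cuticle protein genes, 11 were tested, and 4 rose (36.4%) and 3 fell (27.3%). Cpr62Bc had 4.42, 6.53 and 4.58 CPM in Lint-O KD, against 17.1, 13.2 and 17.3 CPM in control (log2 fold change -1.62 ± 0.24 SE, adjusted p = 0.00048), whereas TwdlG, a Tweedle cuticle gene, had 1.74, 1.56 and 1.58 CPM in Lint-O KD, against 0.0455, 0.0974 and 0.0639 CPM in control, at least 11.1-fold higher.

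Heat shock and lipid genes changed moderately. Of 18 tested heat shock genes, 8 rose (44.4%) and 3 fell (16.7%), against 16.8% and 7.58% of all tested genes. The 3 that fell are chaperones present at all times (Hsc70-3, Hsc70-5 and Hsp60, between -0.21 and -0.19 on the log2 scale). Without Lint-O KD replicate 1 or replicate 2, 0 of them fell, and 1 fell without replicate 3. Hsp68 had 66.8, 92.3 and 98.0 CPM in Lint-O KD, against 33.5, 32.1 and 26.6 CPM in control (log2 fold change 1.48 ± 0.17 SE, adjusted p = 0.0003), and Hsp26 had 225, 228 and 228 CPM in Lint-O KD, against 159, 157 and 158 CPM in control (log2 fold change 0.52 ± 0.05 SE, adjusted p = 2.6e-08). The groups of both genes were separate, more tightly for Hsp26. Of 24 genes of fatty acid synthesis and lipid storage, 7 rose (29.2%, against 16.8% of all tested genes) and 0 fell in edgeR's test. DESeq2 called 0 lower, and 2 were lower at an unadjusted p under 0.05 and 2 with the correction for exon length. FASN1 (CG3523), the fatty acid synthase gene, had 1945, 2056 and 2239 CPM in Lint-O KD, against 1579, 1462 and 1662 CPM in control (log2 fold change 0.41 ± 0.07 SE, adjusted p = 8e-05). Lsd-1, a perilipin of lipid droplets, had 43.0, 46.6 and 45.8 CPM in Lint-O KD, against 29.0, 29.4 and 28.8 CPM in control (log2 fold change 0.63 ± 0.07 SE, adjusted p = 8.1e-08), and Acox57D-p, an acyl-CoA oxidase gene of peroxisomes, had 46.6, 47.3 and 46.6 CPM in Lint-O KD, against 19.8, 22.3 and 22.1 CPM in control (log2 fold change 1.13 ± 0.07 SE, adjusted p = 9.1e-12). In all 3 genes every Lint-O KD library was above every control library.

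The genes of the repressor complexes themselves changed little. Of 7 genes on a list of LINT and related genes, l(3)mbt and Lint-1 rose and lint-O fell. Of these the study places L(3)mbt, Lint-1 and CoRest in the LINT complex. It presents Lint-O as another co-suppressor of L(3)mbt and does not discuss Asx. l(3)mbt had 164, 183 and 188 CPM in Lint-O KD, against 122.9, 139 and 141 CPM in control (log2 fold change 0.41 ± 0.07 SE, adjusted p = 4.1e-05), and Lint-1 had 80.4, 84.7 and 87.1 CPM in Lint-O KD, against 67.4, 69.7 and 72.03 CPM in control (log2 fold change 0.27 ± 0.06 SE, adjusted p = 0.00077). Both rises were small but without overlap. CoRest (-0.01), the deacetylase gene Rpd3 (-0.08), the demethylase gene Su(var)3-3 (0.02) and Asx (0.01) had log2 fold changes that were not called. Of 9 genes of dREAM, the complex of Myb, E2f2 and Rbf that represses cell type genes, 1 rose, mip130 (log2 fold change 0.27, adjusted p = 0.0039), and 0 fell in edgeR's test (0 lower by DESeq2 and 0 at an unadjusted p under 0.05). The other 8 had log2 fold changes between -0.05 and 0.17. The call of mip130 was lost without Lint-O KD replicate 2 or 3 or control replicate 1 or 2 (log2 fold change of mip130 between 0.21 and 0.28, adjusted p between 0.014 and 0.037). Of 17 genes of heterochromatin and H3K9 methylation, 2 rose (11.8%, against 16.8% of all tested genes). The number was 1 without Lint-O KD replicate 2 or control replicate 2 or 3 or with the correction for exon length. HP1D3csd, an HP1-type chromoshadow gene, had 6.28, 5.90 and 5.16 CPM in Lint-O KD, against 1.86, 1.95 and 1.31 CPM in control (log2 fold change 1.80 ± 0.17 SE, adjusted p = 2.5e-08), well apart.

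Markers of other cell types that a culture could hold were summed for comparison, and the part of such cells in the results was not tested. The summed level of 7 germ line markers was between 286 and 295 CPM in Lint-O KD and between 62.3 and 66.2 CPM in control, with 5 of 6 tested members higher. Hemocyte markers summed to 136 to 146 CPM in Lint-O KD and 116 to 124 CPM in control, with 2 of 6 tested members higher and 1 lower. Muscle markers summed to 209 to 216 CPM in Lint-O KD and 155 to 175 CPM in control, with 3 of 6 higher, one of which, sls, lost its call with the correction for exon length. Neuron markers summed to 77.0 to 94.1 CPM in Lint-O KD and 65.9 to 115 CPM in control, with VAChT at 0. Of the fat body markers, Lsp1alpha, Lsp2 and Fbp1 were at 0 in all 6 libraries, and the summed level of 46.7 to 63.7 CPM in Lint-O KD and 8.94 to 17.7 CPM in control came mostly from apolpp (Rfabg), a gene of chromosome 4.

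Genes of chromosome 4, the small and largely heterochromatic autosome, had a larger share of upregulated genes than the other chromosomes at low and middle levels in control. Of its 85 tested genes, 32 rose (37.6%) and 1 fell, against shares of genes that rose between 15.4% and 17.2% on X and the other arms. Under 5 CPM in control, 26 of 30 genes of chromosome 4 rose (86.7%, median log2 fold change 2.47), against 681 of 1938 elsewhere (35.1%, median 0.59). Between 5 and 50 CPM the counts were 6 of 14 (42.9%) and 515 of 3057 (16.8%), and above 50 CPM they were 0 of 41 and 227 of 3561 (6.37%). These shares carry no test. yellow-h, a gene of the yellow family of secreted proteins, had 67.0, 57.1 and 47.2 CPM in Lint-O KD, against 2.55, 2.05 and 0.926 CPM in control (log2 fold change 5.03 ± 0.37 SE, adjusted p = 6.6e-05), and 12.1% of its exon length overlaps another gene. mGluR, a metabotropic glutamate receptor gene, had 6.20, 5.01 and 4.95 CPM in Lint-O KD, against 0.227, 0.244 and 0.128 CPM in control (log2 fold change 4.79 ± 0.27 SE, adjusted p = 2.2e-12), and ey, the eye selector gene, had 1.74, 1.88 and 1.95 CPM in Lint-O KD, against 0.409, 0.292 and 0.128 CPM in control (log2 fold change 2.81 ± 0.34 SE, adjusted p = 6.5e-07). All 3 separated the groups, and control replicate 3 was the lowest control library in each. pan, the Wnt pathway's TCF gene, rose by 1.63 and bt, a titin-like muscle gene, by 1.79 on the log2 scale.

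The levels of long genes differed among the libraries, and this moved with the smaller calls. Among genes above 10 CPM in control, the median log2 fold change was -0.05 for exon lengths between 1000 and 2000 bases, 0.11 between 8000 and 12000 bases and 0.19 above 12000 bases, where 29.8% of 94 genes were upregulated and 1.06% downregulated. Above 12000 bases, the median deviation from the mean of the 6 libraries was 0.03, 0.13 and 0.13 in Lint-O KD replicates 1 to 3, and -0.0038, -0.12 and -0.14 in control replicates 1 to 3. Replicate 1 of each group stood apart from the other libraries of its group, although the groups did not overlap above 12000 bases. When the trend was removed within each library, an alternative chosen after seeing the data, the test called 1436 genes higher and 865 lower. These included 1390 of the 1466 upregulated genes and 660 of the 661 downregulated genes. All 790 genes with a rise of at least 1 on the log2 scale were among them. Long genes whose small rise was lost include sls, br, kug, rhea, LanA, trol, N and shn, and those of sls and br reversed (-0.15 and -0.049 on the log2 scale).

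**Figure D5:**
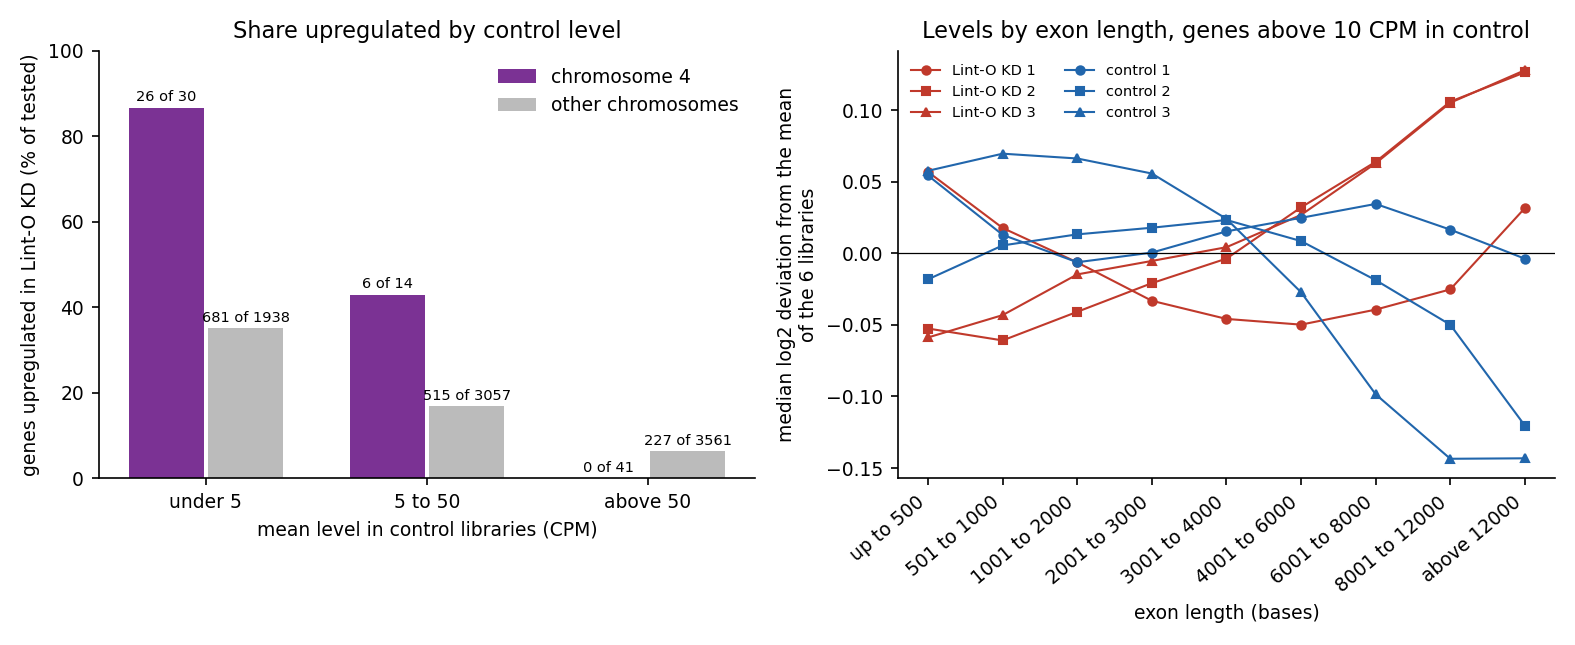
Left, share of tested genes upregulated in Lint-O KD on chromosome 4 (purple) and on the other chromosomes (grey), by mean level in control; the bars are higher for chromosome 4 under 5 CPM and between 5 and 50 CPM, but not above 50 CPM (0 of 41). Right, median log2 deviation of each library from the mean of the 6 by exon length, for genes above 10 CPM in control, where Lint-O KD replicates 2 and 3 (red) run upward to 0.13 and control replicates 2 and 3 (blue) downward to -0.12 and -0.14.

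Several of the largest changes were in genes known only by their CG numbers. CG7166 had 44.8, 44.9 and 36.1 CPM in Lint-O KD, against 0.227, 0.244 and 0.0958 CPM in control (log2 fold change 7.85 ± 0.21 SE, adjusted p = 1.3e-15). CG9372 had 14.1, 14.97 and 13.7 CPM in Lint-O KD, against 0.182, 0.146 and 0.160 CPM in control (log2 fold change 6.41 ± 0.19 SE, adjusted p = 3.9e-17), and 21.6% of its exon length overlaps another gene. Both were nearly silent in control. CG7202 had 3.60, 3.08 and 4.42 CPM in Lint-O KD, against 0 counts in control, at least 25.3-fold above the floor, and CG13177 had 2.73, 3.13 and 2.16 CPM in Lint-O KD, against 0 counts in control, at least 18.3-fold. Among genes that fell, CG9521, a gene of the glucose-methanol-choline oxidoreductase family, had 83.7, 79.7 and 79.2 CPM in Lint-O KD, against 292, 265 and 300.2 CPM in control (log2 fold change -1.82 ± 0.06 SE, adjusted p = 2.2e-16). Of 3813 tested genes with CG symbols, 739 rose (19.4%) and 281 fell (7.37%), against 16.8% and 7.58% of all tested genes. This set was taken by symbol and includes genes that now have names, such as Sting (CG1667) and lint-O (CG2662). Of 291 tested noncoding genes with CR symbols, 46 rose (15.8%) and 10 fell (3.44%), near or under the shares of all genes. Without any 1 library other than control replicate 3, 5 or 6 fell. The noncoding gene CR32368 (CG32368) had 234, 223 and 193 CPM in Lint-O KD, against 36.2, 27.3 and 35.1 CPM in control (log2 fold change 2.72 ± 0.10 SE, adjusted p = 4.9e-11). It was counted among the CG symbols, not among the 291 noncoding genes.

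How far the response to Lint-O KD differed from that to L(3)mbt KD was tested directly between the 2 knockdowns, which share the control libraries. In edgeR's test of this difference, 596 genes (6.83% of those tested) were higher and 806 (9.24%) were lower in Lint-O KD than in L(3)mbt KD, 1402 in all. The total was 907 without Lint-O KD replicate 2 and 933 without L(3)mbt KD replicate 1. With the exon length trend removed, 488 genes were higher and 1014 lower in Lint-O KD than in L(3)mbt KD. Of the 1466 genes upregulated in Lint-O KD, 425 were lower and 102 higher than in L(3)mbt KD, and 939 were not called. Against control, the log2 fold change of the targeted mRNA was -2.56 in Lint-O KD (lint-O) and -0.85 in L(3)mbt KD (l(3)mbt). The study reports that Lint-O protein was barely detected when its partner was depleted. The part of knockdown depth and of this protein loss in the differences was not tested. vas averaged 182 ± 3.91 CPM in Lint-O KD and 373 ± 30.7 CPM in L(3)mbt KD, and bgcn averaged 21.6 ± 0.995 CPM in Lint-O KD and 55.7 ± 2.00 CPM in L(3)mbt KD (mean ± SD of 3 libraries each). Both were lower in Lint-O KD (difference -1.03 and -1.37 on the log2 scale). aub averaged 101 ± 7.63 CPM in Lint-O KD and 103 ± 6.34 CPM in L(3)mbt KD, a difference of -0.03 (0.07 SE) that was not called. Prosbeta2R2 averaged 30.4 ± 0.936 CPM in Lint-O KD and 30.01 ± 1.12 CPM in L(3)mbt KD, a difference of 0.02 (0.07 SE), also not called. Of the genes that fell, mthl9 averaged 35.9 ± 2.78 CPM in Lint-O KD and 6.01 ± 1.02 CPM in L(3)mbt KD (difference 2.57 on the log2 scale), whereas upd2 averaged 0.814 ± 0.308 CPM in Lint-O KD and 2.58 ± 0.0927 CPM in L(3)mbt KD (difference -1.62). mthl9 was thus higher, and upd2 lower, in Lint-O KD than in L(3)mbt KD.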

How the data were processed

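RNA-seq libraries of OSCs were made after poly-A selection, 3 each for Lint-O KD, control and L(3)mbt KD. Per the study's methods, the authors removed rRNA reads and mapped the rest to dm6 with HISAT2, and the submitters' processing notes list HTSeq; versions, annotation and strand setting are not given in the sources used here. The deposited values are unnormalized counts per gene. The 5 summary lines that name no gene were left out (reads outside genes made up 2.76% to 8.45% in the 6 libraries of Lint-O KD and control, and ambiguous reads 1.47% to 1.61%). Genes were filtered with filterByExpr, scaled by TMM and tested with the quasi-likelihood F-test of edgeR (4.0.16, R 4.3.3, robust estimation, all 9 libraries), with Benjamini-Hochberg adjustment over 8726 genes and an FDR of 0.01. Recovery was tried on simulated data for Lint-O KD against control with 8618 genes. There edgeR recovered 98% of 100 genes changed by 1 and 41% of 100 genes changed by 0.3 on the log2 scale, with 1 false call. The changed genes were drawn only from genes well above the count floor, in equal numbers up and down. Far fewer genes changed than in the data, and no exon length trend was simulated. Recovery of genes low in control and false calls in the real libraries were therefore not measured. Replicates differed by more than counting noise (chi-square per degree of freedom 5.59 to 20.1 within Lint-O KD and control). Gene names, exon lengths and promoters came from RefSeq (Release 6, dm6), to which 16524 of 16727 symbols matched. Alternatives were DESeq2 (1.42.0), other scalings, filters and thresholds, a replicate block, and each library left out; 3 more were chosen after seeing the data.

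The gene lists were chosen with earlier results of these data known. Named genes were the depleted gene, the 15 per direction with the largest fold change and the 10 per direction with the largest CPM difference (called, at least 10 counts on average, no overlap), up to 4 per direction in each list, every LINT, dREAM and OSC marker gene, and genes called in opposite directions in the 2 knockdowns. These were 295 genes, and 28 others were added after their values were seen, among them cuff, rhi, osk, exu, topi, RpS5a, vkg, spi, Hsp26, yellow-h, mGluR and ey. The promoter windows shown are a selection, and an item chosen for it is not reported here.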

Additional observations from a re-analysis of the deposited data

Results flagged for a closer look

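In 15 genes the change after Lint-O KD and the change after L(3)mbt KD, both against the same control libraries, were called in opposite directions, and the difference between the 2 knockdowns was itself called in edgeR's quasi-likelihood test. In 12 of them the level was higher in Lint-O KD than in L(3)mbt KD. l(3)mbt, the gene targeted in the other knockdown, differed by 1.25 on the log2 scale, and grass, encoding a protease of the Toll cascade, by 1.17. The differences of metabolic genes were 0.74 for Cyp12a5, 0.65 for FASN1 (CG3523), 0.53 for CG6178, 0.45 for Agpat2 (fu12) and 0.43 for Acat2 (CG9149). Long genes differed by 0.66 (sls), 0.58 (Bruce), 0.53 (kug), 0.50 (rhea) and 0.45 (skd). The other 3 genes were lower in Lint-O KD than in L(3)mbt KD, with differences of -1.08 for betaTub60D, a beta-tubulin gene, -1.01 for upd3, a JAK/STAT ligand gene, and -0.59 for Idgf3, a secreted chitinase-like growth factor gene. With the exon length trend removed, 9 of the 15 kept opposite calls, and Bruce, FASN1, kug, rhea, skd and sls did not. The part of exon length in the other differences was not tested.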

How the results depend on the processing

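The count of 1466 upregulated genes stayed within 1.5 times under 17 of 18 alternatives, from 1145 genes with at least 10 counts in every library to 1959 at an FDR of 0.05; with a log2 fold change of at least 1 it was 790, and with 1 library left out 1216 to 1355. The count of 661 downregulated genes was 1204 at an FDR of 0.05, 28 with a log2 fold change of at least 1, 996 with no filter on low counts, and 394 (without Lint-O KD replicate 2) to 680 with 1 library left out; DESeq2 gave 817 lower and 1450 higher. The 1402 genes that differed between Lint-O KD and L(3)mbt KD became 907 (without Lint-O KD replicate 2) to 1646 with 1 library left out, and 933 without L(3)mbt KD replicate 1. With the exon length trend removed, the fold changes of br (-0.049) and sls (-0.15) reversed. Of 302 named genes past the threshold, 219 kept direction and call under all alternatives that could be run. Causes were not tested.

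Replicate numbers are shared between the groups, but deviations of same-numbered Lint-O KD and control libraries correlated by only 0.062, 0.070 and 0.148 across genes, so the numbers were not taken as pairs, although each Lint-O KD library correlated best with its own number. With a replicate block, 1487 genes were higher and 771 lower in Lint-O KD, and 1485 differed from L(3)mbt KD. Without a shared source the block is a setting like the others. Depth limits genes under about 3 counts per library, and in simulated data only 41% of changes of 0.3 on the log2 scale were recovered, so small changes without a call are not shown to be absent.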
